A study of Homo sapiens with 6 samples.

Results

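The genes described here are the 498 genes of chromosome 15 whose TPM averaged 1 or more across the 6 libraries, out of 2291 chromosome 15 genes in the deposited tables and 15493 genes of all chromosomes at that level. TPM is the number of reads per base of gene length, scaled so that each library sums to 1000000. The genes were taken by the chromosome of their first listed exon and ordered by start on GRCh37, where they run from 20584748 to 102516746. This chromosome was chosen because its genes sat low as a whole in SF3B1-K700E cells against wild-type cells. That difference is therefore given as a description without a test. K562 is a human line from a chronic myeloid leukaemia in blast crisis, with erythroid features. One group was 3 libraries labelled SF3B1-wt (WT below) and the other 3 libraries labelled SF3B1-K700E (K700E below), a common substitution in the splicing factor SF3B1. No treatment is named in the labels, and the libraries were made with an mRNA kit from RNA of whole cultures, in which fewer cells of a kind and less RNA per cell cannot be told apart. The labels do not say how the substitution was introduced, whether the cells were 1 clone, or whether replicates were separate cultures, so any spread or p-value reflects these libraries only.

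Chromosome 15 is acrocentric: its short arm holds ribosomal DNA repeats, and nearly all of its protein-coding genes lie on the long arm. The proximal long arm holds the imprinted Prader-Willi and Angelman region, flanked by blocks of duplicated sequence, and further out lie genes for the B2M light chain of MHC class I, the ribosomal protein RPL4, pyruvate kinase PKM and mitotic regulators such as BUB1B. K562 cells carry many gains and losses of chromosome arms. When a chromosome is gained or lost, the RNA of its genes generally moves together, by an amount near the change in DNA copies.

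K700E replicate 2 stood apart from the other 5 libraries on this chromosome, and this touches each result below. The 6 libraries held between 104642332 and 136588117 reads, recovered from TPM and gene length, and the median of these genes had between 1836 and 2610 reads per library. SF3B1 was at 144, 98.9 and 115 TPM in WT replicates 1 to 3 and at 160, 136 and 118 TPM in K700E replicates 1 to 3, and gene levels do not show the substitution itself. Of the erythroid markers, the fetal globin gene HBG1 was at 638 to 1743 TPM in WT and 1039 to 1625 TPM in K700E, and the transcription factor gene GATA1 at 273 to 494 TPM in WT and 417 to 540.3 TPM in K700E. The embryonic globin gene HBZ was at 182, 208 and 301 TPM in WT replicates 1, 2 and 3 and at 382, 346 and 749 TPM in K700E replicates 1, 2 and 3, with no overlap. The embryonic globin gene HBE1 was at 3710 TPM in K700E replicate 1 and between 603 and 1368 TPM in the other libraries. Of the lymphoid markers, CD3E was at 0.305 to 1.18 TPM and CD79A at 0.285 to 0.441 TPM over the 6 libraries, and MS4A1 was at 0 in 5 of them. Of the 4 monocyte and granulocyte markers (CD14, ITGAM, LYZ, MPO) 2 were at 1 TPM or more, and they summed to 118 to 137 TPM in WT and 66.7 to 183 TPM in K700E. The 4 stromal and epithelial markers (COL1A1, COL1A2, EPCAM, KRT19) summed to 154 to 254 TPM in WT and 201 to 276 TPM in K700E. KRT19 and EPCAM made up most of that sum, and the collagen genes differed without overlap: COL1A2 was at 0.0453, 0.0341 and 0.0476 TPM in WT and at 5.94, 2.38 and 3.19 TPM in K700E, and COL1A1 at 1.31 to 2.44 TPM in WT and 3.29 to 5.07 TPM in K700E. Their part in the results was not tested.

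To show how unlike the start regions of these genes were, 4 promoters are printed. Of the 212 protein-coding members with at least 10 TPM and a RefSeq promoter, the 2 with the lowest and the 2 with the highest share of G and C in the 100 bases before the start site are shown, with the dinucleotide CG in capitals. Sequences are from RefSeq on GRCh38.p14, 5′ to 3′ on the strand of the gene.
NEDD4, chr15:55917137-55917236, minus strand: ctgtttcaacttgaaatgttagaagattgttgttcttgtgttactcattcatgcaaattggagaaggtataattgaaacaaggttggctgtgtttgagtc
AAGAB, chr15:67255199-67255298, minus strand: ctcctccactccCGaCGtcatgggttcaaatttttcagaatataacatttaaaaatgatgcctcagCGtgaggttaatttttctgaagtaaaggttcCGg
MEF2A, chr15:99565317-99565416, plus strand: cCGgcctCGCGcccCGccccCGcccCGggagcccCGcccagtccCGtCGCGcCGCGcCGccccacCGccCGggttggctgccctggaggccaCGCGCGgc
RBPMS2, chr15:64775590-64775689, minus strand: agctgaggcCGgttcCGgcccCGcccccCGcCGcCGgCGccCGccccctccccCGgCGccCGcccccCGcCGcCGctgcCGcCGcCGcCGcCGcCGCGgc
NEDD4 encodes a ubiquitin ligase, AAGAB a chaperone of adaptor complexes, MEF2A a transcription factor and RBPMS2 an RNA-binding protein. The G and C share was 35% for NEDD4 with 0 CG, 40% for AAGAB with 4 CG, 88% for MEF2A with 18 CG and 93% for RBPMS2 with 21 CG. CG, searched on either strand since it is its own reverse complement, occurred in 84.3% of the 35116 RefSeq promoters over the same 100 bases. All 4 genes were lower in K700E replicate 2 than in the mean of K700E replicates 1 and 3, relative to the median gene of the genome, by log2 differences of -0.48, -0.47, -0.29 and -0.71 in the order printed. Over the 212 genes, the third with the least G and C (up to 65%, 77 genes) had a median of -0.47 and the third with the most (from 74%, 74 genes) a median of -0.45.

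The summed level of the 498 genes showed the same library. It was 20958, 21825 and 21392 TPM in WT replicates 1, 2 and 3. It was 22115, 13790 and 19002 TPM in K700E replicates 1, 2 and 3. K700E replicate 2 was thus the lowest by a wide margin, while K700E replicate 1 lay above every WT library and K700E replicate 3 below every WT library. The sum leans on a few high genes. The 12 ribosome and translation genes described below alone made up 5391, 7628 and 6596 TPM in WT replicates 1, 2 and 3. In K700E replicates 1, 2 and 3 they made up 4900, 3173 and 4530 TPM. The sum alone therefore does not show where most members stood. Relative to the median gene of the genome, the median member in K700E replicate 3 was at a log2 difference of -0.12 from the WT mean.

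The median member had a K700E minus WT log2 difference of -0.17 relative to the median of all genes. All differences are of log2(TPM + 1), which understates changes in genes near 1 TPM, and relative means that the difference of the median gene (0.13) was subtracted. Of the 498 genes 382 (76.7%) lay below the median gene, where all genes give 50% by construction. The members' 25th and 75th percentiles were -0.33 and -0.01. Among the 23 chromosomes with at least 100 genes at this level, chromosome 15 had the lowest median, and the other 22 ran from -0.07 to 0.07. Chromosome 14 was next at -0.07.

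The spread between the K700E libraries was larger than the difference between genotypes. As the median deviation of the members from the mean of the 6 libraries, WT replicates 1, 2 and 3 stood at 0.14, 0.06 and 0.07. K700E replicates 1, 2 and 3 stood at 0.13, -0.36 and -0.03. The group values were 0.09 ± 0.04 in WT and -0.09 ± 0.25 in K700E (SD, n = 3 each), and K700E replicate 1 lay within the WT range. Without K700E replicate 2 the chromosome's relative difference was -0.04 and 281 of the 498 genes (56.4%) lay below the median gene. Without K700E replicate 1 it was -0.28.

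**Figure D1:**
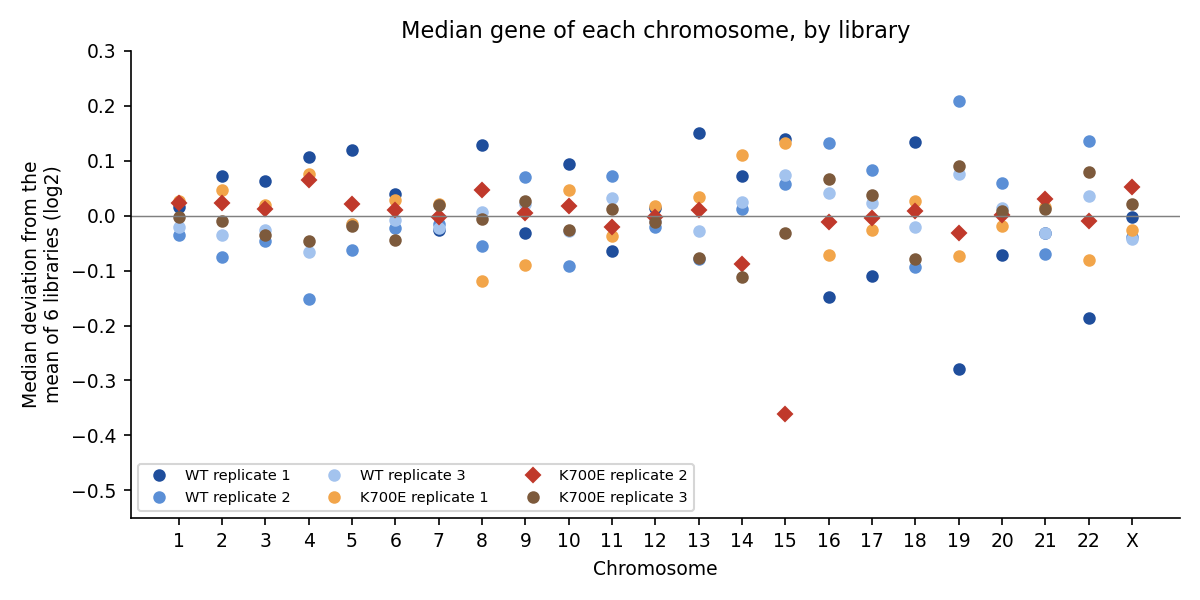
Median deviation of the genes of each chromosome from the mean of the 6 libraries (vertical axis, log2 of TPM + 1, relative to all genes) for chromosomes with at least 100 genes (horizontal axis), 1 point per library. K700E replicate 2 (red diamonds) sits at -0.36 on chromosome 15 and between -0.09 and 0.06 on the others.

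Within the K700E group, K700E replicate 2 was lower than the mean of the other K700E libraries on chromosome 15 by a median of 0.41 on the log2 scale. With a single library on one side this has no replicate check and no test. In linear terms the median, on TPM + 1, was 0.751 of the level in the other K700E libraries. The 25th and 75th percentiles of members were -0.55 and -0.25, against -0.13 and 0.14 for genes of all other chromosomes. In all, 460 of the 498 genes (92.4%) were below the median gene in this difference, where all genes give 50%. K700E replicate 2 was the lowest of the 6 libraries in 298 members (59.8%), and the share over all genes was 9.58%. The 3 WT libraries, compared among themselves in the same way, gave chromosome 15 medians of 0.05, -0.03 and -0.02.

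Against the mean of the WT libraries, the members had medians of 0.04 in K700E replicate 1, -0.45 in K700E replicate 2 and -0.12 in K700E replicate 3. The 3 comparisons share the WT libraries. In members with at least 10 TPM (262 genes), where the added 1 matters least, K700E replicate 2 stood at a median of -0.49 against WT and -0.45 against the other K700E libraries. The latter is 0.731 of their level. If RNA followed DNA copies strictly in every cell, going from 3 copies to 2 would give a log2 ratio of -0.58, and going from 4 to 3 would give -0.42. DNA was not measured here, and fewer copies in all cells, fewer copies in part of the cells and less RNA per copy cannot be told apart from these values.

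**Figure D2:**
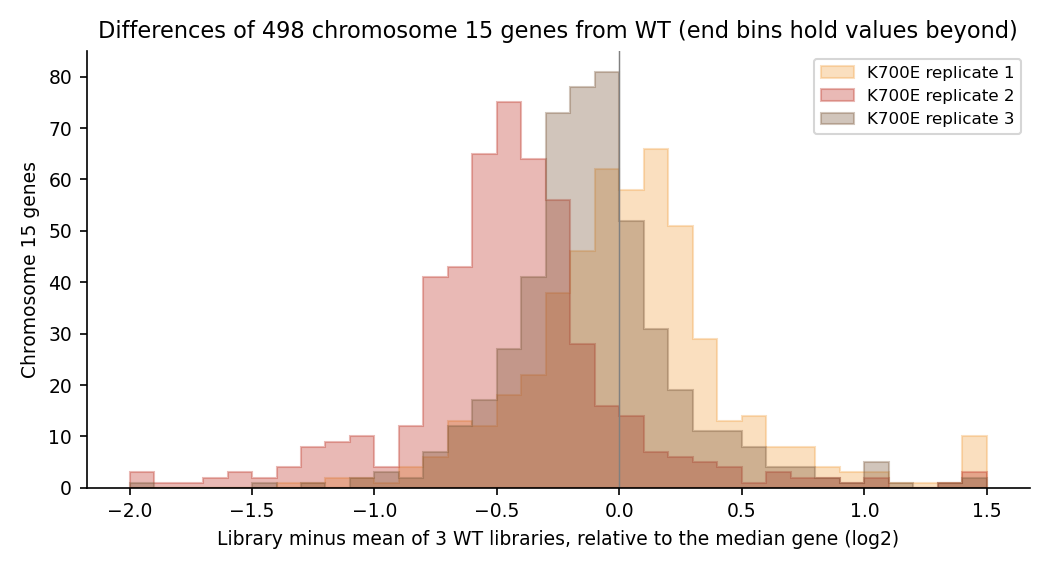
Number of chromosome 15 genes (vertical axis) by the difference of each K700E library from the mean of the 3 WT libraries (horizontal axis, log2 of TPM + 1, relative to the median gene), with values beyond the axis in the end bins. K700E replicate 2 is shifted as a whole, with a median of -0.45, while K700E replicates 1 and 3 have medians of 0.04 and -0.12.

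In order along the chromosome, the members made 19 windows of 25 genes and a last window of 23. All 20 windows had a K700E minus WT difference below the median gene, from -0.30 to -0.05, compared with 46.7% of the 599 windows of other chromosomes. Without K700E replicate 2 the highest window was at 0.11 and the lowest at -0.20. By library, K700E replicate 2 was below the mean of the 6 libraries in 20 of 20 windows, at -0.44 to -0.12. WT replicate 3 was below it in 0 of 20 windows, K700E replicate 1 in 1, WT replicate 1 in 3, WT replicate 2 in 5 and K700E replicate 3 in 14. K700E replicate 2 was thus low in each window, and least so in the last.

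**Figure D3:**
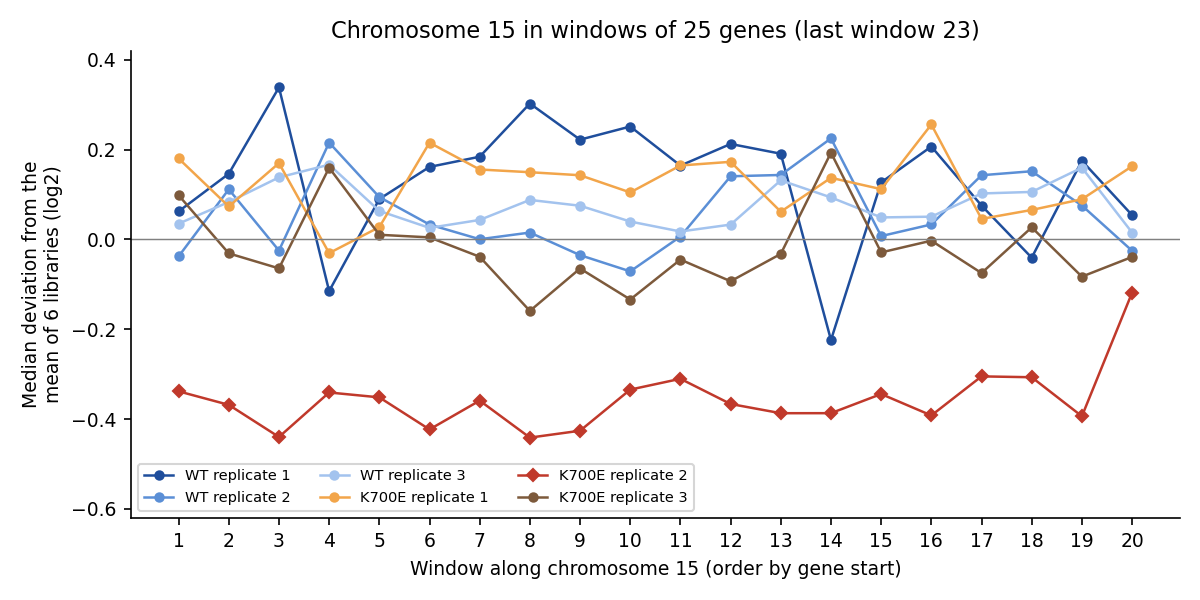
Median deviation from the mean of the 6 libraries (vertical axis, log2 of TPM + 1, relative to all genes) in consecutive windows of chromosome 15 genes (horizontal axis, order by gene start), 1 line per library. K700E replicate 2 lies between -0.44 and -0.31 up to window 19 and at -0.12 in window 20.

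The size of the shift in K700E replicate 2 was similar from window to window. Against the other K700E libraries, window medians ran from -0.56 to -0.24 (median -0.41, SD 0.07 over 20 windows). Window 1, from HERC2P3 to 28930410, was the lowest at -0.56 with 25 of its 25 genes below the median gene. Window 14, from the steroid enzyme gene CYP11A1 at 74630100, was at -0.51, and window 16, from 78582869, at -0.49. Windows 10 and 17 were at -0.32 and -0.36. The share of G and C in transcripts, which moved with the WT libraries along the windows (Pearson r -0.87 for WT replicate 1 and 0.75 for WT replicate 2, over 20 windows that share libraries), had r 0.12 with this difference. After a correction on that share, added after the data were seen for this difference, the chromosome median was -0.43.

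Of the 619 windows over the genome, the 18 lowest in this difference were all on chromosome 15. The windows of other chromosomes ran from -0.34 to 0.37, with an SD of 0.09. Of the 10 windows of other chromosomes under -0.2, 7 were on chromosome 14. They belonged to its distal 8 windows, from ISCA2 at 74960459 on GRCh37, where 173 of 199 genes were under the genome's median gene (median -0.29), while the 300 genes before them had a median of 0.03. That stretch differed from chromosome 15 in its libraries: against WT it stood at 0.13 in K700E replicate 1, -0.34 in K700E replicate 2 and -0.30 in K700E replicate 3. The window just before it, from 71374176, was at -0.10 within the K700E group. Against WT that window stood at 0.17, -0.25 and -0.31 in K700E replicates 1, 2 and 3. Where the stretch starts therefore depends on the comparison. The difference between the 2 chromosomes was not tested.

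**Figure D4:**
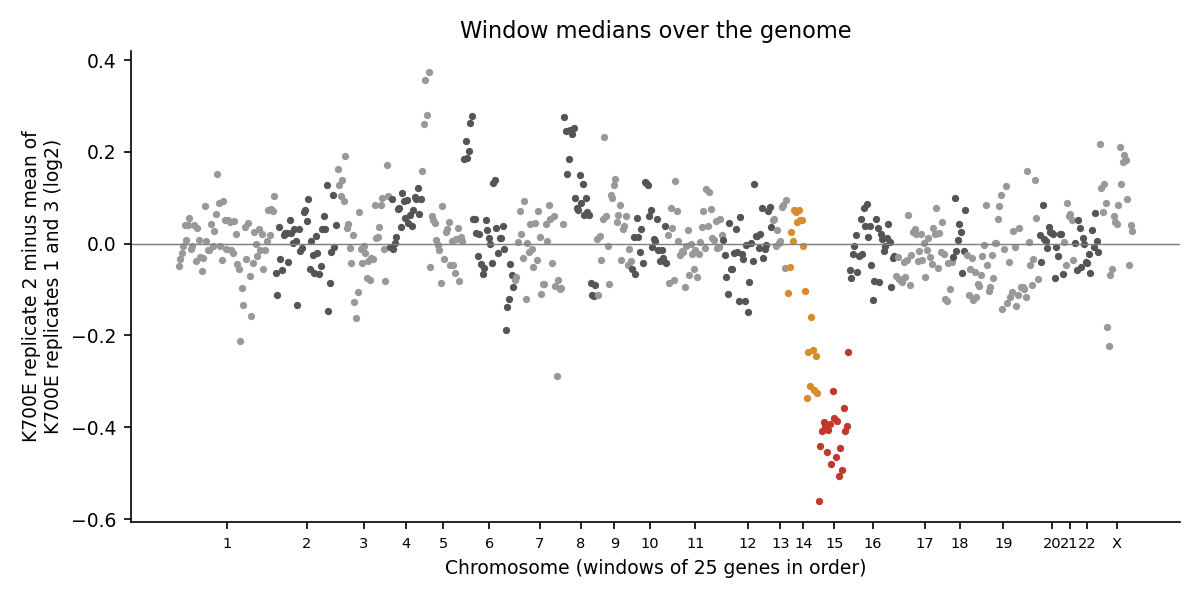
K700E replicate 2 minus the mean of K700E replicates 1 and 3 (vertical axis, log2 of TPM + 1, relative to the median gene) in windows of 25 genes over the genome (horizontal axis, by chromosome), 1 point per window, chromosome 14 in orange and 15 in red. All 20 windows of chromosome 15 lie between -0.56 and -0.24.

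The last window, from the growth factor receptor gene IGF1R at 99191768 to the subtelomeric pseudogene WASH3P, was the least shifted, with 16 of 23 genes under the genome's median gene and a window median of -0.24. Its 8 genes of at least 10 TPM were all under it (median -0.28), and its 15 lower genes had 8 under it (median -0.13). CHSY1, a chondroitin synthase, stood at 27.8, 24.3 and 26.4 TPM in WT and at 29.4, 15.8 and 24.98 TPM in K700E replicates 1, 2 and 3. SELENOS, a selenoprotein of the ER membrane, stood at 45.7, 47.6 and 45.2 TPM in WT and at 55.6, 35.3 and 44.1 TPM in K700E. Both were lowest in K700E replicate 2. WASH3P, 1 of several near-identical copies at chromosome ends whose reads may be shared, was at 14.8, 38.1 and 30.95 TPM in WT and at 23.3, 28.6 and 37.3 TPM in K700E, which puts K700E replicate 2 inside the range of the others.

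The genes of the proximal imprinted region and its flanks were all below the median gene in K700E replicate 2 against the other K700E libraries: 9 of 9 tested, at a median of -0.45. Against WT, their median was 0.22 in K700E replicate 1 and -0.04 in K700E replicate 3. CYFIP1, a subunit of the WAVE actin regulator, was at 38.3, 33.8 and 39.2 TPM in WT and at 45.5, 27.7 and 39.3 TPM in K700E. TUBGCP5, a subunit of the gamma-tubulin ring, was at 26.6, 22.2 and 23.7 TPM in WT and at 32.1, 16.9 and 26.4 TPM in K700E. In both, K700E replicate 1 was the highest of the 6 libraries and K700E replicate 2 the lowest. UBE3A, the ubiquitin ligase lost in Angelman syndrome, was at 27.8, 14.01 and 19.6 TPM in WT and at 26.5, 16.0 and 17.97 TPM in K700E, so its groups overlapped. The other 7 of 16 listed genes were under 1 TPM, SNRPN, NDN and MAGEL2 among them.

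Genes of cell division and DNA repair followed the chromosome, with 24 of 25 below the median gene in K700E replicate 2 against the other K700E libraries (median -0.42). CCNB2, the mitotic cyclin B2, was at 146, 82.5 and 113 TPM in WT and at 108, 61.0 and 77.6 TPM in K700E. BUB1B, the spindle checkpoint kinase-like protein BUBR1, was at 97.7, 52.8 and 72.0 TPM in WT and at 94.6, 58.0 and 66.1 TPM in K700E. FANCI, of the Fanconi anaemia repair pathway, was at 118, 83.9 and 97.9 TPM in WT and at 82.7, 61.3 and 80.4 TPM in K700E. K700E replicate 2 was the lowest library for CCNB2 and FANCI, whereas WT replicate 2 was the lowest for BUB1B. FAN1, a repair nuclease, was the single gene of the list not below, at 16.8, 15.2 and 13.3 TPM in K700E replicates 1, 2 and 3.

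Ribosome and translation genes had the lowest median K700E minus WT difference of the 10 lists, at -0.39 relative to the median gene. All 12 tested were below the median gene in K700E replicate 2 against the other K700E libraries (median -0.50), and against WT the medians were -0.10 in K700E replicate 1 and -0.33 in K700E replicate 3. RPL4, a large-subunit ribosomal protein, was at 3131, 3745 and 3371 TPM in WT and at 2528, 1610 and 2161 TPM in K700E, with no overlap between the groups. SRP14, of the signal recognition particle, was at 258, 252 and 262 TPM in WT and at 310.1, 182 and 245 TPM in K700E. RSL24D1, a ribosome assembly factor, was at 495, 314 and 369 TPM in WT and at 393, 253 and 288 TPM in K700E. RPLP1, another ribosomal protein, was at 1135, 3054 and 2285 TPM in WT and at 1336, 926 and 1579 TPM in K700E, so its groups overlapped. RPL4 was thus low in all K700E libraries, while SRP14 was low in K700E replicate 2 and high in K700E replicate 1.

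Most secretory and metabolic genes were lowest in K700E replicate 2. Of 26 genes of the endoplasmic reticulum, vesicles and lysosome, 26 were below the median gene against the other K700E libraries (median -0.47), and K700E replicate 2 was the lowest of 6 libraries in 22. PDIA3, a disulfide isomerase that helps load MHC class I, was at 528, 440.0 and 454 TPM in WT and at 434, 309 and 540.5 TPM in K700E. PPIB, a prolyl isomerase of the ER, was at 325, 427 and 383 TPM in WT and at 286, 189 and 373 TPM in K700E. For mitochondria and metabolism it was 22 of 22 genes below (median -0.47), with K700E replicate 2 the lowest library in 15. ETFA, a subunit of the electron transfer flavoprotein, was lowest in WT replicate 2, at 151 TPM against 156 TPM in K700E replicate 2. PKM, pyruvate kinase, was at 474, 483 and 534 TPM in WT and at 622, 387 and 632 TPM in K700E. K700E replicates 1 and 3 were above all WT libraries and K700E replicate 2 below them. ALDH1A2, a retinaldehyde dehydrogenase, was at 469.9, 385 and 414 TPM in WT and at 795, 264 and 390.4 TPM in K700E, the widest spread among these examples.

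Signalling, immune, ubiquitin and transcription genes gave the same count pattern. Below the median gene in K700E replicate 2 against the other K700E libraries were 24 of 25 signalling genes, 16 of 17 blood and immune genes, 17 of 17 ubiquitin and proteasome genes and 24 of 25 RNA processing and transcription genes. MAP2K1, the kinase MEK1, was at 52.9, 49.8 and 53.4 TPM in WT and at 76.6, 43.9 and 52.97 TPM in K700E. B2M was at 716, 584 and 623 TPM in WT and at 638, 404 and 589 TPM in K700E. PSMA4, a proteasome core subunit, was at 113, 92.5 and 95.7 TPM in WT and at 139, 73.8 and 96.9 TPM in K700E. In each of these, K700E replicate 2 was the lowest of the 6 libraries. SNRPA1, a U2 snRNP spliceosome protein, was at 263, 143 and 202 TPM in WT and at 267, 184 and 188 TPM in K700E, and there WT replicate 2 was the lowest. The median K700E minus WT difference of the blood and immune list was -0.01, the highest of the 10 lists, followed by -0.04 for the distal genes of band 15q26.

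**Figure D5:**
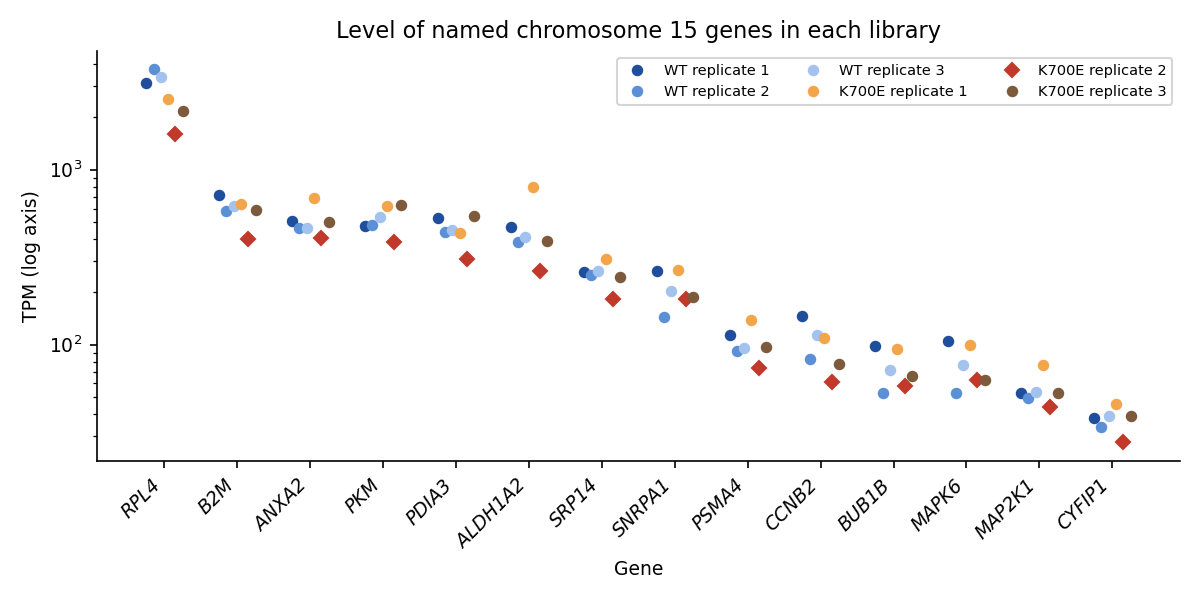
TPM (vertical axis, log scale) of 14 named chromosome 15 genes (horizontal axis), 1 point per library. K700E replicate 2 (red diamonds) is the lowest of the 6 libraries in 11 of the genes shown, and not in SNRPA1, BUB1B and MAPK6. The genes shown are a selection from the named genes. Over all members the share was 59.8%, and over all genes 9.58%.

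The shift in K700E replicate 2 was seen at each level of expression and in each class of gene. Its median against the other K700E libraries was -0.28 for 132 members from 1 to under 3 TPM, -0.40 for 104 from 3 to under 10 TPM, -0.43 for 145 from 10 to under 30 TPM, -0.47 for 87 from 30 to under 100 TPM and -0.56 for 30 of at least 100 TPM. It was -0.44 for 351 protein-coding genes, -0.27 for 80 long non-coding RNA genes and -0.32 for 49 pseudogenes. For 10 genes of other RNA it was -0.31, with only 6 below the median gene, where all genes give 50%. For 8 genes without a matched type it was -0.63. It was -0.41 for 231 genes on the plus strand and -0.42 for 267 on the minus strand. The added 1 in log2(TPM + 1) shrinks differences of low genes, and most non-coding members were low. It matters least in high genes, and the further fall from 30 TPM upward was not tested.

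A few genes of at least 10 TPM did not follow. In 6 of 262 the difference in K700E replicate 2 was not below the median gene: KLF13, FAN1, CDIN1, TM6SF1, SH3GL3 and the pseudogene RPS3AP6. SH3GL3, an endophilin, was at 21.7, 24.7 and 9.86 TPM in K700E replicates 1, 2 and 3, and between 7.59 and 18.4 TPM in WT. CDIN1, mutated in a congenital dyserythropoietic anaemia, was at 14.6, 14.7 and 10.4 TPM in K700E and between 9.82 and 13.9 TPM in WT. Others were far lower than the chromosome in K700E replicate 2 against the other K700E libraries. HDC, histidine decarboxylase, was at 14.9, 1.48 and 25.2 TPM in K700E replicates 1, 2 and 3 and at 3.49, 10.1 and 6.21 TPM in WT. CFAP161, a cilium protein, and its neighbour IL16, a cytokine gene, were at 135 and 16.5 TPM in K700E replicate 1, 4.75 and 0.726 TPM in K700E replicate 2 and 18.3 and 4.19 TPM in K700E replicate 3. IL16 was at 1.78, 3.81 and 2.78 TPM in WT, so K700E replicate 1 was far above WT and K700E replicate 2 below it. Against WT, members of at least 10 TPM reached 3.46 in K700E replicate 1 and fell no lower than -1.63 in K700E replicate 2. The genes in this paragraph were chosen after their values were seen.

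Single genes seldom passed the test between genotypes. In the limma fit over all genes, 2 members were called at an adjusted p under 0.05 (1.38% of all genes were). Of these, 1 was lower (0.232% of all genes were called lower) and 1 higher (1.15% of all genes were called higher). An unadjusted limma p under 0.05 was found in 48 of the 498 members and in 2563 of all 15493 genes. Since the chromosome was chosen on this comparison, nothing is read from these counts. K700E libraries all lay below every WT library in 36 members (4.99% of all genes) and all above in 23 (19.0% of all genes).

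The gene called lower was TPM1 (GRCh37 chromosome 15, 63334831 to 63364114, plus strand), which encodes the actin-binding tropomyosin alpha-1. It was at 17.6, 14.5 and 15.1 TPM in WT and at 7.07, 5.49 and 8.47 TPM in K700E, or 15.7 ± 1.62 and 7.01 ± 1.489 TPM (SD, n = 3 each). All 3 K700E libraries were low, and the log2 difference of -1.07 (SE 0.18, limma adjusted p 0.0424) was larger than the spread between libraries. Leaving out any 1 library took its limma adjusted p above 0.05, from 0.0602 without K700E replicate 3 to 0.199 without WT replicate 3.

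The gene called higher was ENSG00000166104, which has no symbol in the table of names (62520095 to 62545434, minus strand). It was at 0.495, 0.696 and 0.627 TPM in WT and at 3.41, 5.19 and 2.56 TPM in K700E, with a log2 difference of 1.52 (SE 0.22, limma adjusted p 0.0249). It was under 1 TPM in each WT library and reached the minimum mean of 1 TPM only through the K700E libraries, where it was high, so its p is no support for a difference. It was highest in K700E replicate 2, against the direction of the chromosome. The next 2 members along the same strand were also highest in K700E replicate 2: the pseudogene GOLGA2P11, from 62545929, was at 0.241, 0.310 and 0.383 TPM in WT and at 1.547, 2.73 and 1.25 TPM in K700E, and ENSG00000260375, which lies inside it, was at 0.787, 1.04 and 0.443 TPM in WT and at 2.49, 3.85 and 1.78 TPM in K700E. Both also reached the minimum mean only through the K700E libraries, and their values are given as a description. The last 2 overlap on 1 strand and may share reads, and no source used here gives how such reads were counted. Without WT replicate 1, 2 or 3 or K700E replicate 1 the limma adjusted p of ENSG00000166104 was above 0.05, at most 0.135.

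Some other members with large differences and no overlap missed the threshold. RTF1, of the PAF transcription elongation complex, was at 67.1, 56.4 and 59.9 TPM in WT and at 35.4, 22.2 and 34.2 TPM in K700E (-1.13 relative to the median gene, SE 0.20, limma adjusted p 0.0664). SEC11A, the catalytic subunit of the signal peptidase, was at 463, 438 and 420 TPM in WT and at 329, 211 and 287 TPM in K700E. MAP2K5, the kinase MEK5, was at 37.1, 34.9 and 36.1 TPM in WT and at 29.4, 18.2 and 27.5 TPM in K700E. These 3 were low in all K700E libraries and lowest in K700E replicate 2. The limma adjusted p of RTF1 was 0.0449 with median-ratio scaling and 0.0249 with the correction on G and C, and that of SEC11A was 0.0392 with the correction. In the other direction, RPP25, a subunit of ribonuclease P, was at 5.20, 7.35 and 6.15 TPM in WT and at 22.98, 11.5 and 15.7 TPM in K700E (log2 difference 1.25, SE 0.26, limma adjusted p 0.0701), with K700E replicate 2 the lowest of the K700E libraries.

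At the limit of 1 TPM, ENSG00000259514 and ENSG00000259712 were just inside with means of 1.0005 and 1.009 TPM, and AP3B2 and RNU5A-1 just outside with 0.995 and 0.979 TPM. A mean under 1 TPM does not show that a gene is silent. NUSAP1, a mitotic spindle protein gene, had a mean of 0.0574 TPM, and it shares its span on the same strand with 2 other rows of the table. How reads in shared spans were counted was not tested.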

How the data were processed

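TPM per gene was deposited by the authors in 2 tables, 1 for the 3 WT and 1 for the 3 K700E libraries, per the file headers. Per the submitters' processing notes, the build was GRCh37 (hg19) and the tools included featureCounts 2.0.1, TopHat2 2.1, cutadapt 2.10 and DESeq2. No source used here says which aligner made each table or how counting was set. The tables were joined by gene ID. TPM multiplied by gene length gave whole reads (tolerance 0.01) for 100% of values above 0. Of the members 431 had a symbol. All genes averaging 1 TPM or more entered a limma 3.58.1 model (R 4.3.3) of log2(TPM + 1) (two-sided, trend, genotype as the only term, Benjamini-Hochberg at 0.05), a procedure tested on simulated data. Gene types and G and C shares (98.4% of members) came from GENCODE transcripts by gene ID; the correction used lowess (fraction 0.3). Windows hold 25 consecutive members. Named genes were called members, the 4 of highest mean TPM per list and in the extreme windows, and the 6 largest non-overlapping differences each way from 10 TPM. Members, lists and alternatives were chosen with earlier results of these data known. Alternatives were pseudocounts of 0.1 and 5, other minima, median-ratio scaling, no trend, protein-coding genes, the correction, a replicate block, other windows and leaving out each library.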

Additional observations from a re-analysis of the deposited data

How the results depend on the processing

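The chromosome 15 median difference (-0.17) ran from -0.28 to -0.04 when 1 library was left out, the latter without K700E replicate 2, and from -0.19 to -0.03 under the other alternatives, the latter with no filter on low values. The number of members called by limma (2) was 0 with no filter, with a minimum of 5 TPM and with the replicate block (126, 22 and 55 members at an unadjusted p under 0.05), 1 with protein-coding genes alone and 10 with the correction on G and C. The calls over all genes moved too: 214 in the main fit, 0 with no filter, 92 with the minimum of 5 TPM and 67 with the block. Protein-coding genes alone gave 122 and the correction 481. Leaving out 1 library gave 0 to 2 members, with 0 without any 1 WT library or K700E replicate 1 (24 to 62 unadjusted). Over all genes it gave 0 to 182 calls. For the unadjusted counts under alternatives the share over all genes is not given, and nothing is read from these counts. The labels do not say whether replicate numbers pair the samples. Deviations of same-numbered libraries correlated at 0.28, -0.19 and 0.30 over all genes, and not every library correlated best with its own number. With mixed signs and few libraries these values cannot settle the pairing. Under the block the limma adjusted p was 0.0776 for TPM1 and 0.0575 for ENSG00000166104. The lowest window (-0.30) ran from -0.42 to -0.20 and the highest (-0.05) from -0.16 to 0.11 when 1 library was left out, and the highest was 0.082 in windows of 5000000 bases. K700E replicate 2 minus the other K700E libraries (-0.41) was -0.28 with a pseudocount of 5, -0.087 with no filter, -0.49 against K700E replicate 1 alone and -0.33 against K700E replicate 3 alone. These 4 and the other alternatives for this difference were chosen after the data were seen. Near 1 TPM, few reads and the pseudocount limit what a short gene can show. Of 736 comparisons of named members with alternatives, 715 stayed within the library spread or on the same side of the threshold, 15 lost the call (TPM1 and ENSG00000166104), 5 gained one (RTF1 with median-ratio scaling, and RTF1, SEC11A, MAN2A2 and CHD2 with the correction), 1 moved and 0 reversed.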
